A study of Drosophila melanogaster with 8 samples.

Results

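The genes of chromosome 4, the small dot chromosome, were followed through RNA-seq of *Drosophila* L3 larvae that lack a part of the splicing machinery. Members were all genes that the deposited expression tables place on chromosome 4, which gave 109 of the 17473 genes listed. The Ensembl annotation BDGP6.54 names all 109, 79 of them as protein coding and 30 as non-coding RNAs or pseudogenes. Of the 109 genes, 81 reached a mean of 1 TPM (a read number divided by gene length and scaled to the same total in each library) over the 8 libraries and were tested, and 71 of these are protein coding.

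Chromosome 4 is the smallest chromosome of the fly. Its genes lie among repeats and carry marks of heterochromatin, yet they are transcribed as often as genes of the long arms. The protein Pof binds these genes and is known to raise their output, the heterochromatin protein HP1a binds them too and is known to lower it, and the histone methyltransferase Egg places the mark that HP1a reads. The chromosome holds well-studied developmental regulators, among them *ci*, the transcription factor of Hedgehog signalling, and the Pax6 genes *ey* and *toy*, together with genes of the synapse, of muscle and of basic metabolism.

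Each of the 4 strains had 2 libraries from whole L3 larvae. WT was w1118, and the homozygous deletion strains were Smn-delta/delta (written SmnΔ/Δ), the U12 deletion U12-delta/delta (U12Δ/Δ) and the U6atac deletion U6atac-delta/delta (U6atacΔ/Δ), made by CRISPR/Cas9, backcrossed to WT and kept over balancers with GFP. U12 and U6atac are small nuclear RNAs of the minor spliceosome, which removes a rare class of introns, and Smn assembles small nuclear ribonucleoproteins of both spliceosomes. All groups carry the L3 label and the methods name the wandering stage, but from its transcriptomes the study staged SmnΔ/Δ as younger L3 larvae than the other strains. Stage and genotype therefore cannot be told apart in any comparison with SmnΔ/Δ. Each library held the RNA of pooled larvae, and their sex is not given in the sources used here. The methods call the 2 libraries biological repeats without saying that they came from separate crosses, so the p-values measure the spread between these libraries.

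The deposited TPM values were found to be divided by the length of another gene in each library, and the fault was undone before any comparison. Every deposited value above 0 was a whole number of reads with the recovered divisor, within 0.01. With the gene's own length between 2.09% and 2.45% of them were. The divisors were themselves found from these values, so whole numbers with them were largely built in. The recovered reads summed to between 23269557 and 28783298 per library, of which 250343 to 353725 fell on chromosome 4. With each gene's own length, the rank correlation across genes between the 2 libraries of a strain rose from between 0.671 and 0.748 to between 0.921 and 0.975. All TPM below use the gene's own length. U12 snRNA had 28 and 10 reads in the WT libraries and 0 in both U12Δ/Δ libraries, where a count of 0 allows up to 3. U6atac snRNA had 0 reads in all 8 libraries, so it checks no label. *Smn* stood at 42.6 and 32.7 TPM in WT and at 8.58 and 15.4 TPM in SmnΔ/Δ (log2 fold change adjusted p = 0.0153), but also at 12 and 15.3 TPM in U6atacΔ/Δ, so its level does not set SmnΔ/Δ apart from U6atacΔ/Δ. In SmnΔ/Δ the 6 glue genes of the salivary gland summed to 3.35 and 3.2 TPM, against 20918.6 to 39358.8 TPM in WT, and the 6 late fat body genes to 2.15 and 1.56 TPM, against 41504.3 to 63722.9 TPM in WT. The glue genes also differed within U12Δ/Δ (45627.5 and 48.9 TPM) and U6atacΔ/Δ (689.3 and 6913.4 TPM), and the 6 muscle genes within WT (6981.6 and 17251.9 TPM) and U12Δ/Δ (5199.3 and 15547.1 TPM). In whole larvae, fewer cells of a type and less RNA per cell cannot be told apart.

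Chromosome 4 genes were expressed at the level of the other arms, from longer and more intron-rich genes. The tested members had a median of mean TPM of 11.6 (quartiles 3.93 and 32.0), and the 11428 tested genes of X, 2L, 2R, 3L and 3R had a median of 11.6 (quartiles 4.43 and 30.7). The median listed length was 3971 bases on chromosome 4 and 1780 bases on the other arms, the median span from start to end 9095 and 2255 bases, and the median number of annotated introns 9 and 3. Only 3 of the 81 tested members have no annotated intron (3.70%), against 15.1% of the tested genes of the other arms. Of the protein-coding genes, 89.9% on chromosome 4 and 79.8% on the other arms passed the minimum of 1 TPM.

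The chromosome contributed between 0.402% and 0.574% of all TPM. In WT the 2 libraries gave 0.421% and 0.515%, in U12Δ/Δ 0.402% and 0.480%, in U6atacΔ/Δ 0.442% and 0.437%, and in SmnΔ/Δ 0.543% and 0.574%. The SmnΔ/Δ libraries lay above all 6 others, and the remaining strains overlapped. *RpS3A*, which encodes a protein of the small ribosomal subunit, alone made up between 34.7% and 47.5% of the chromosome's TPM. Without the 3 members of highest mean TPM (*RpS3A*, *ATPsynbeta* and *apolpp*) the share was 0.167% and 0.210% in WT, 0.149% and 0.161% in U12Δ/Δ, 0.125% and 0.148% in U6atacΔ/Δ, and 0.196% and 0.220% in SmnΔ/Δ, so that the libraries of U12Δ/Δ and U6atacΔ/Δ all lay below both WT libraries and SmnΔ/Δ overlapped WT. The order of strains also depended on scaling. After division by median-ratio size factors the mean share was 0.393% in WT, 0.483% in U12Δ/Δ, 0.565% in U6atacΔ/Δ and 0.469% in SmnΔ/Δ.

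**Figure D1:**
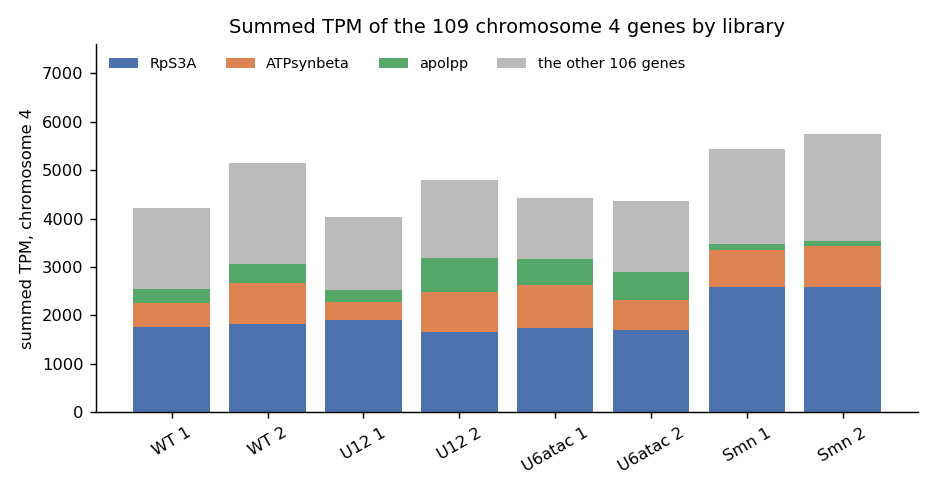
Summed TPM of the 109 chromosome 4 genes (vertical axis, from 0) in each of the 8 libraries, split into RpS3A, ATPsynbeta, apolpp and the other 106 genes. The RpS3A segment is tallest in the 2 SmnΔ/Δ libraries (2578.3 and 2585.7 TPM), where the apolpp segment is smallest (120.0 and 117.0 TPM).

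Among the most abundant members, the genes of translation and respiration varied by less than the test could resolve. *RpS3A* had 1771.1 and 1825.8 TPM in WT, 1902.2 and 1663.4 TPM in U12Δ/Δ, 1740.6 and 1707.6 TPM in U6atacΔ/Δ, and 2578.3 and 2585.7 TPM in SmnΔ/Δ. Both SmnΔ/Δ libraries were above all others, but the change against WT did not pass the test (log2 fold change 0.52 ± 0.23 (SE), adjusted p = 0.143). Among 78 RpL and RpS genes with a mean of at least 100 TPM, a list chosen after their values were seen, the median log2 fold change of SmnΔ/Δ against WT was 0.39. *ATPsynbeta*, the catalytic subunit of mitochondrial ATP synthase, ranged from 384.3 to 880.7 TPM with every strain overlapping WT. *ND-49*, a subunit of respiratory complex I, ranged from 80.3 to 149.5 TPM, and *eIF4G1*, the scaffold of translation initiation, from 43.7 to 62.3 TPM. None of these genes was called, that is, none had a Benjamini-Hochberg adjusted p under 0.05 over all genes tested, in any of the 6 comparisons.

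*apolpp*, the precursor of the lipid carrier of the hemolymph, was the exception at high level. It had 283.5 and 392.4 TPM in WT, 247.8 and 695.9 TPM in U12Δ/Δ, 541.6 and 567.3 TPM in U6atacΔ/Δ, and 120.0 and 117.0 TPM in SmnΔ/Δ. SmnΔ/Δ lay below every other library. *apolpp* was lower in SmnΔ/Δ than in U6atacΔ/Δ (U6atacΔ/Δ against SmnΔ/Δ, log2 fold change 2.22 ± 0.46, adjusted p = 0.0169) and than in U12Δ/Δ (1.80 ± 0.46, adjusted p = 0.0458), whereas against WT the value was -1.49 ± 0.46 (adjusted p = 0.0619). The gene is known from fat body, whose late markers were near 0 in SmnΔ/Δ as given above, and the part of these markers in the result was not tested.

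The comparison of U6atacΔ/Δ with WT sets larvae without a minor spliceosome RNA beside WT larvae. The study grouped both at the same L3 stage by their transcriptomes. Glue genes still summed to 689.3 and 6913.4 TPM in U6atacΔ/Δ and to 39358.8 and 20918.6 TPM in WT, whereas the late fat body genes overlapped. The part of timing or tissue in the differences was not tested. In U6atacΔ/Δ, 18 of the 81 tested members were lower and 1 was higher. Over all genes tested 26.9% were called in this comparison (23.5% lower and 3.40% higher), and on chromosome 4 23.5% were, a share near that background. Both U6atacΔ/Δ libraries were below both WT libraries for 55 members (67.9%, against 57.3% of all genes tested). The median log2 fold change was -0.60 on chromosome 4 (quartiles -0.86 and -0.29), -0.45 over all genes tested, and between -0.48 and -0.44 on the other arms. The members thus lay 0.15 below the median of the whole table. Median-ratio scaling moved the median of all genes from -0.45 to 0.05 and that of the members to -0.07, and the members called then were 3 higher and 3 lower, of which 4 were among the 19. Quantile normalization gave 1 higher and 0 lower. Directions below are on the TPM scale, and each called member kept its sign under both scalings, with 6 and 1 members called. Leaving out WT library 1, WT library 2, U6atacΔ/Δ library 1 or U6atacΔ/Δ library 2 left 0 members called each time.

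The listed transcription factors and regulators are described first. Of 18 listed regulators on the chromosome 16 were tested, and 7 fell in U6atacΔ/Δ against WT, 0 rose and 9 were not called, with a list median of -0.82. Over all genes tested 23.5% were lower in this comparison, and the median was -0.45. *pho*, a DNA-binding protein of the Polycomb group, had 26.1 and 24.0 TPM in WT and 7.23 and 10.4 TPM in U6atacΔ/Δ (log2 fold change -1.43 ± 0.25, adjusted p = 0.0185), with 16.0 and 11.6 TPM in U12Δ/Δ. *onecut*, a neuronal homeodomain factor, fell from 3.07 and 3.66 TPM to 0.534 and 0.963 TPM (-1.33 ± 0.25, adjusted p = 0.0197). *ci* had 15.2 and 20.1 TPM in WT, 5.62 and 8.04 TPM in U6atacΔ/Δ (-1.26 ± 0.25, adjusted p = 0.0216), and 8.27 and 9.53 TPM in U12Δ/Δ. In all these genes the libraries of U6atacΔ/Δ were separate from those of WT. The zinc finger gene *dati* (-1.21), *Hcf*, a cofactor of chromatin-modifying complexes (-0.97), *ey* (-0.96) and the zinc finger homeodomain gene *zfh2* (-0.91) were the other falls. *toy*, the second Pax6 gene, showed another order, with 3.68 and 4.73 TPM in WT, 1.12 and 1.24 TPM in U12Δ/Δ, 2.51 and 3.38 TPM in U6atacΔ/Δ, and 3.61 and 3.47 TPM in SmnΔ/Δ. It was lowest in U12Δ/Δ, where its difference from SmnΔ/Δ passed the test (-1.06 ± 0.24, adjusted p = 0.0317) and that from WT had an adjusted p of 0.0582.

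**Figure D2:**
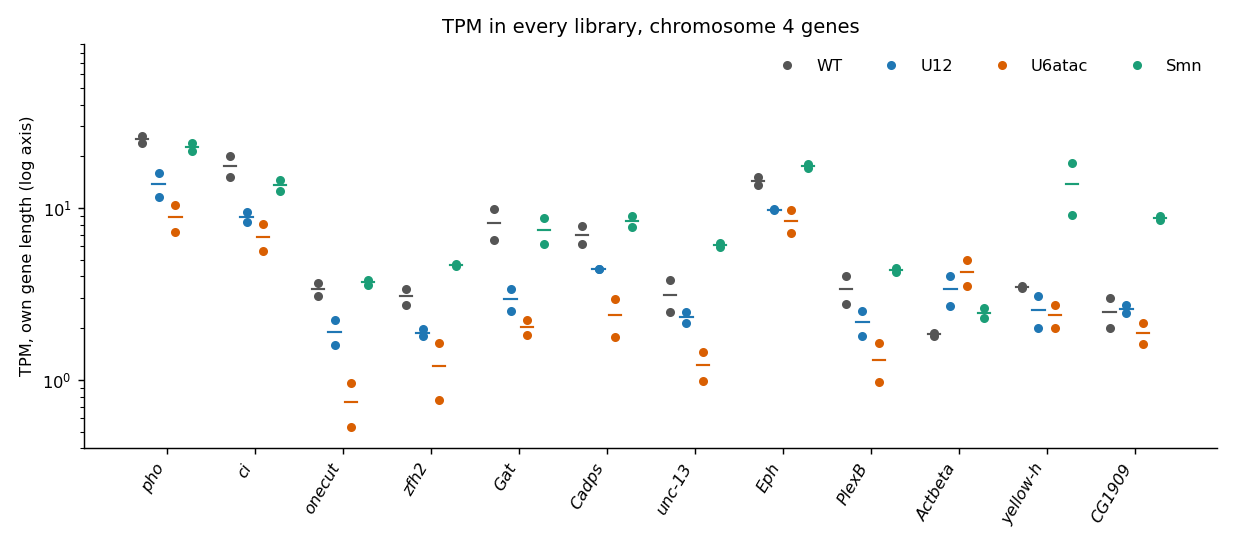
TPM (log axis, own gene length) of 12 chromosome 4 genes in every library, with points for the 2 libraries of a strain and a line at their mean. For pho, ci, onecut, Gat and Cadps both U6atacΔ/Δ points lie below both WT points, for Actbeta both lie above them (3.52 and 4.97 against 1.88 and 1.81 TPM), and for CG1909 both SmnΔ/Δ points lie above all others (8.53 and 9.04 TPM).

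Genes of the synapse and of neurons fell with them in U6atacΔ/Δ. Of 9 listed genes 6 passed the minimum, and 4 of these 6 fell against WT, with a median of -1.0. Over all genes tested 23.5% were lower in this comparison, and the median was -0.45. The 6 genes had mean levels from 3.1 to 18.8 TPM. On the other arms the median was -0.82 at 1 to 5 TPM, with 39.5% called, and -0.52 at 5 to 20 TPM, with 27.7% called. *Gat*, a GABA transporter of glia, had 9.85 and 6.48 TPM in WT, 1.82 and 2.24 TPM in U6atacΔ/Δ and 3.37 and 2.52 TPM in U12Δ/Δ. On the scale of log2(TPM + 1), its fall in U6atacΔ/Δ was the largest of any tested member against WT (-1.58 ± 0.29, adjusted p = 0.0191). In mean TPM *Gat* went from 8.17 to 2.03. Genes of lower level fell by a larger fold, as *JYalpha* (2.71 to 0.347 TPM), *dati* (2.23 to 0.395 TPM) and *onecut* (3.36 to 0.748 TPM). In U12Δ/Δ both libraries of *Gat* were also below WT (-1.20 ± 0.29, adjusted p = 0.0641). *Cadps*, which acts in the release of dense-core vesicles, fell from 6.14 and 7.85 TPM to 1.78 and 2.97 TPM (-1.26 ± 0.26, adjusted p = 0.0216). *dpr7*, a cell surface protein of the immunoglobulin superfamily (-1.12), and *unc-13*, which primes synaptic vesicles (-0.88), also fell. *mGluR*, *Ekar* and *Kif3C* were below the minimum, at mean levels of 0.780, 0.633 and 0.356 TPM. The 6 neuron markers summed to 55.1 and 60.1 TPM in WT, 42.6 and 56.6 TPM in U6atacΔ/Δ, 51.8 and 52.4 TPM in U12Δ/Δ, and 46.1 and 42.0 TPM in SmnΔ/Δ, with none at 0. *Syt1* alone had 38.9 and 39.7 TPM in WT, 35.3 and 45.5 TPM in U6atacΔ/Δ, and 15.4 and 11.7 TPM in SmnΔ/Δ. It made up most of the sums in WT and U6atacΔ/Δ. Of the 6 markers *elav* fell in U6atacΔ/Δ against WT (-1.10, adjusted p = 0.023) and the other 5 were not called. Their values were -0.73 for *nSyb*, -0.64 for *brp*, -0.36 for *ChAT*, -0.03 for *para* and 0.03 for *Syt1*. In SmnΔ/Δ against WT *nSyb* (0.86) and *para* (1.32) were higher, *Syt1* (-1.48) was lower and 3 were not called. The part of these markers in the result was not tested.

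Ligands, receptors and signalling genes gave the only rise. Of 13 listed genes, all tested, 4 fell in U6atacΔ/Δ against WT, 1 rose and 8 were not called. Over all genes tested 23.5% were lower and 3.40% higher in this comparison. The falls were in *PIP4K*, a phosphoinositide kinase (58.7 and 53.0 TPM in WT, 20.1 and 31.2 TPM in U6atacΔ/Δ, -1.12 ± 0.29, adjusted p = 0.032), the semaphorin receptor *PlexB* (-0.93), *Slip1* (-0.86) and the receptor tyrosine kinase *Eph* (-0.73). For *Ephrin*, the ligand of *Eph*, the value was -0.69 (adjusted p = 0.124), and for *PlexA* it was -0.48 (adjusted p = 0.161). *Actbeta*, a TGF-beta family ligand that signals at the neuromuscular junction and in the endocrine system, had 1.88 and 1.81 TPM in WT, 2.70 and 4.05 TPM in U12Δ/Δ, 3.52 and 4.97 TPM in U6atacΔ/Δ, and 2.62 and 2.29 TPM in SmnΔ/Δ. All 6 deletion libraries were above both WT libraries. Its rise in U6atacΔ/Δ passed the test (0.87 ± 0.26, adjusted p = 0.0492), and the values against WT were 0.60 ± 0.26 in U12Δ/Δ (adjusted p = 0.192) and 0.28 ± 0.26 in SmnΔ/Δ (adjusted p = 0.477). The other 2 TGF-beta ligands of the chromosome did not follow it, with -0.79 ± 0.28 for *mav* (adjusted p = 0.0726) and -0.43 ± 0.24 for *myo* (adjusted p = 0.22) in U6atacΔ/Δ.

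*Actbeta* (FBgn0024913, minus strand) also has introns in the study's list, which the study chose on these libraries. The ends of a short intron are shown because only this member was called higher in U6atacΔ/Δ against WT on the TPM scale. That call was kept in 5 of 9 other settings that left out no library. The intron lies at chr4:1077830-1077885 (dm6), with 56 bases, and is among the 5 annotated introns of the gene. The sequences run 5′ to 3′ on the transcribed strand, with 5 exon bases and 20 intron bases at each end, and the capitals mark the first and the last pair of intron bases.
Actbeta short intron, 5′ end: ttagcGTaagtaataacacaatctt
Actbeta short intron, 3′ end: taacaaaattacttttacAGcttgc
The intron begins with GT and ends with AG. Gene-level reads do not show whether it was spliced.

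The 3 remaining falls in U6atacΔ/Δ were in genes outside the lists. *JYalpha*, a sodium pump subunit gene known from male fertility, had 3.21 and 2.20 TPM in WT and 0.334 and 0.361 TPM in U6atacΔ/Δ (-1.45 ± 0.40, adjusted p = 0.0379), with 0.412 and 2.15 TPM in U12Δ/Δ. *CG11360* fell by 1.15 and the zinc transporter *Zip102B* fell by 0.74 on the log2 scale. In the muscle and cytoskeleton list, *bt*, the titin-like projectin of muscle, had 12.9 and 65.3 TPM in WT, 12.3 and 85.2 TPM in U12Δ/Δ, 41.6 and 37.7 TPM in U6atacΔ/Δ, and 49.8 and 44.4 TPM in SmnΔ/Δ. Its libraries of 1 strain differed more than those of any other tested member, in the direction of the muscle markers given above, and it was called in no comparison. Of the 11 housekeeping genes on the chromosome, 0 were called against WT in any deletion strain. Over all genes tested 0.848% were called against WT in U12Δ/Δ, 26.9% in U6atacΔ/Δ and 20.3% in SmnΔ/Δ. In U6atacΔ/Δ the share on the other arms was 17.8% at 20 to 100 TPM and 12.5% above 100 TPM.

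In U12Δ/Δ against WT 0 members were called by limma, with 15 of 81 at an unadjusted p under 0.05. Limma voom on the recovered reads also called 0 members, and over all genes tested limma called 0.848% (0.225% higher and 0.623% lower). Both U12Δ/Δ libraries were below both WT libraries for 47 members (58.0%, against 44.9% of all genes) and above them for 4 (4.94%, against 9.49%). The median log2 fold change was -0.36, against -0.29 over all genes and between -0.31 and -0.27 on the other arms. Among members with separate libraries the lowest values were *toy* (-1.25 ± 0.24, adjusted p = 0.0582), *Gat* (-1.20), the non-coding RNA *lncRNA:CR44024* (-0.92 ± 0.31), *asRNA:CR44027* (-0.92 ± 0.36) and *ci* (-0.90 ± 0.25, adjusted p = 0.0774). The 4 members above WT in both libraries were *Actbeta* (0.60), the uncharacterized gene *CG11155* (0.42), *eIF4G1* (0.28) and *CaMKI*, a calmodulin-dependent kinase (0.11). Set against each other, U12Δ/Δ and U6atacΔ/Δ differed in 0 members by limma and in 0.026% of all genes (0.0173% higher and 0.00865% lower), with 4 members at an unadjusted p under 0.05 and 0 called by limma voom. Both U12Δ/Δ libraries were above both U6atacΔ/Δ libraries for 27 members (33.3%, against 25.6%) and below them for 2 (2.47%, against 9.8%). The median of U12Δ/Δ against U6atacΔ/Δ was 0.22 on chromosome 4 and 0.16 over all genes.

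Few members passed the test against WT in SmnΔ/Δ, where stage and genotype cannot be told apart. In SmnΔ/Δ against WT 2 of 81 members were higher and 0 lower, which is 2.47%, whereas 20.3% of all genes tested were called (11.1% higher and 9.22% lower) and between 16.3% and 22.6% on each of the other arms. The members also spread less, with quartiles of the log2 fold change at -0.15 and 0.44, against -0.55 and 0.54 over all genes. The median was 0.17 on chromosome 4 and -0.01 over all genes, and between -0.08 and 0.01 on the other arms. Both SmnΔ/Δ libraries were above both WT libraries for 33 members (40.7%, against 33.0%) and below for 18 (22.2%, against 35.6%). The share called was lower on chromosome 4 in each range of mean TPM: 4.0% against 23.5% of the other arms at 1 to 5 TPM, 3.70% against 17.0% at 5 to 20 TPM, 0 of 23 against 19.9% at 20 to 100 TPM, and 0 of 6 against 26.3% above 100 TPM. Among genes with listed lengths between 2377 and 6175 bases, the middle of the members' range, 2.44% were called on chromosome 4 and 16.0% on the other arms. The medians of these genes were 0.06 and 0.04. Among genes with 4 to 14 introns the medians were -0.03 and 0.07, and among protein-coding genes 0.17 and -0.01. Only 41 and 50 of the 81 members entered the comparisons by length and by intron number, and their own medians were below 0.17. By range of mean TPM the members' median was the higher in each. It was 0.28 against -0.18, 0.10 against 0.01, 0.10 against 0.03 and 0.25 against 0.12, from low to high. These shares and medians were compared without a test. Leaving out 1 library left between 1 and 2 members called, whereas median-ratio scaling called 5 higher and 2 lower, quantile normalization 6 higher and 1 lower, and limma voom 5 higher and 1 lower, against 20.9%, 27.1% and 19.4% of all genes.

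**Figure D3:**
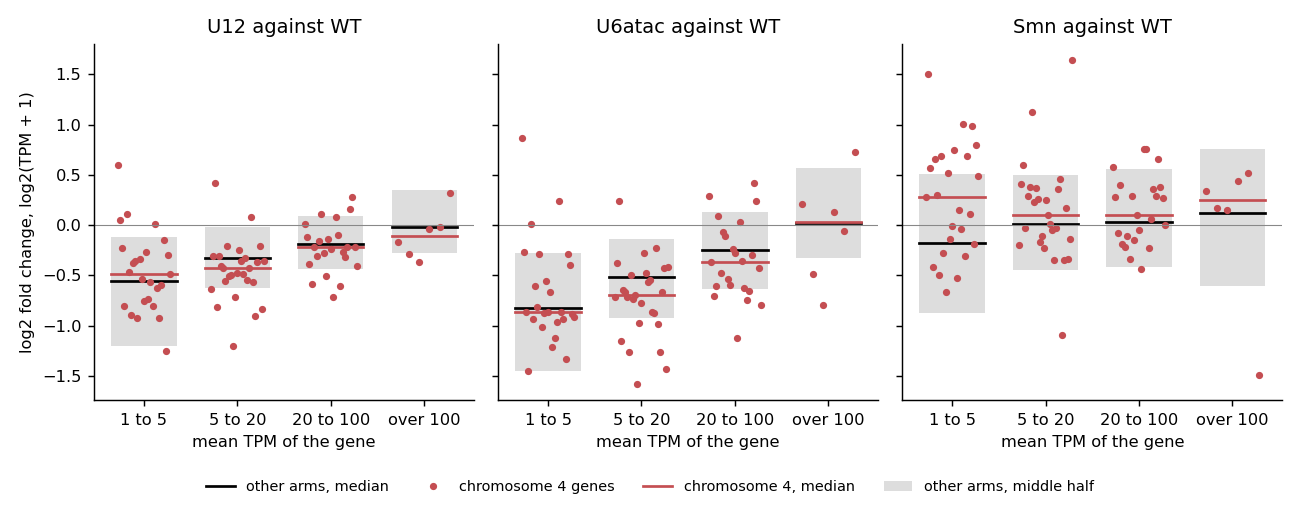
Log2 fold change on the log2(TPM + 1) scale (vertical axis) against WT, by range of mean TPM (horizontal axis), in 3 panels for U12Δ/Δ, U6atacΔ/Δ and SmnΔ/Δ. Red points are the 81 tested chromosome 4 genes with their median as a red line, and grey bars span the quartiles of the other arms with a black median line; at 1 to 5 TPM the red median of SmnΔ/Δ is 0.28 and the black one -0.18.

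Both members that rose in SmnΔ/Δ are poorly studied genes of low expression. *CG1909* had 2.0 and 2.99 TPM in WT, 2.72 and 2.46 TPM in U12Δ/Δ, 1.61 and 2.14 TPM in U6atacΔ/Δ, and 8.53 and 9.04 TPM in SmnΔ/Δ (log2 fold change against WT 1.5 ± 0.24, adjusted p = 0.00837). It was called in each of the 4 fits with 1 library left out. *yellow-h*, a member of the yellow family of secreted proteins, had 3.54 and 3.45 TPM in WT, 3.09 and 2.0 TPM in U12Δ/Δ, 2.01 and 2.74 TPM in U6atacΔ/Δ, and 9.13 and 18.3 TPM in SmnΔ/Δ (1.64 ± 0.35, adjusted p = 0.0213), and it was called in 1 of those 4 fits. In both genes the SmnΔ/Δ libraries stood clear of the other 6. Exons of *yellow-h* share 182 bases with *asRNA:CR46065* on the other strand, and reads of such partners cannot be told apart without strand. The next highest values did not pass the test: *CG33978* (1.12 ± 0.49), *lncRNA:CR43956* (1.01 ± 0.54) and *pan*, the transcription factor of Wnt signalling (3.11 and 4.74 TPM in WT, 9.99 and 7.41 TPM in SmnΔ/Δ, 0.99 ± 0.29, adjusted p = 0.0547). The lowest values were those of *apolpp* and *asRNA:CR44030* (-1.09 ± 0.34, adjusted p = 0.0655).

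On the TPM scale U6atacΔ/Δ and SmnΔ/Δ differed in more members than any other pair, which quantile normalization (3 members, against 7 in SmnΔ/Δ against WT) and centring on neighbouring genes (10 against 12) did not keep. In U6atacΔ/Δ against SmnΔ/Δ 33 of 81 members were lower and 1, *apolpp*, was higher, which is 42.0%, against 26.7% of all genes tested (4.25% higher and 22.5% lower) and between 25.4% and 29.6% on the other arms. Both U6atacΔ/Δ libraries were below both SmnΔ/Δ libraries for 68 members (84.0%, against 63.9%). The median was -0.73, against -0.50 over all genes and between -0.53 and -0.46 on the other arms, so that the members lay 0.23 lower than the genome on the log2 scale, also under median-ratio scaling (-0.21 against 0.02). With that scaling 3 members were higher and 11 lower, and with quantile normalization 2 higher and 1 lower. Without U6atacΔ/Δ library 1 the count was 1, without U6atacΔ/Δ library 2 it was 14, without SmnΔ/Δ library 1 it was 5, and without SmnΔ/Δ library 2 it was 6. This comparison shares libraries with both comparisons against WT. All 6 tested synapse genes fell, with *unc-13* at 0.981 and 1.46 TPM in U6atacΔ/Δ and 6.28 and 5.94 TPM in SmnΔ/Δ (-1.69 ± 0.26, adjusted p = 0.00635) and 2.47 and 3.79 TPM in WT between them. *Syt7*, a calcium sensor of vesicle fusion, was at 1.04 and 1.72 against 5.11 and 6.25 TPM (-1.5 ± 0.28, adjusted p = 0.0132). Of the 6 neuron markers, 4 fell in the same comparison and *Syt1* rose (1.51), and their part was not tested. Of the 16 regulators 9 fell, among them *zfh2* (-1.39), *pan* (-1.27), the TFIID subunit *Taf3* (-1.22), *Pur-alpha* (-1.11) and *MED26*, a subunit of the Mediator complex (-1.02). Of the signalling genes *PlexB*, *Eph* and *Slip1* fell, and of the cytoskeleton genes *Zyx*, an actin-associated LIM protein, fell by 1.01. Of the 11 housekeeping genes the calcium pump *PMCA* fell (-0.73). *CaMKII* (-0.83) and 12 further genes outside the lists also fell. Of the 33 falls, 14 were also called lower against WT, with the same U6atacΔ/Δ libraries. Over all genes tested 23.5% were lower against WT, and the share lower in both comparisons was not computed.

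U12Δ/Δ against SmnΔ/Δ gave 7 lower members and 1 higher, *apolpp*, which is 9.88%, against 13.3% of all genes tested (2.92% higher and 10.4% lower). Both U12Δ/Δ libraries were below both SmnΔ/Δ libraries for 59 members (72.8%, against 49.0%). The falls were *yellow-h* (-2.0), *lncRNA:CR44024* (-1.62), *CG1909* (-1.45), *pan* (-1.14), *unc-13* (-1.10), *toy* (-1.06) and *CG11076* (-0.98). The count was 3 without U12Δ/Δ library 1, 9 without U12Δ/Δ library 2, 1 without SmnΔ/Δ library 1 and 0 without SmnΔ/Δ library 2. Median-ratio scaling gave 1 higher and 4 lower, and quantile normalization 2 higher and 0 lower.

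**Figure D4:**
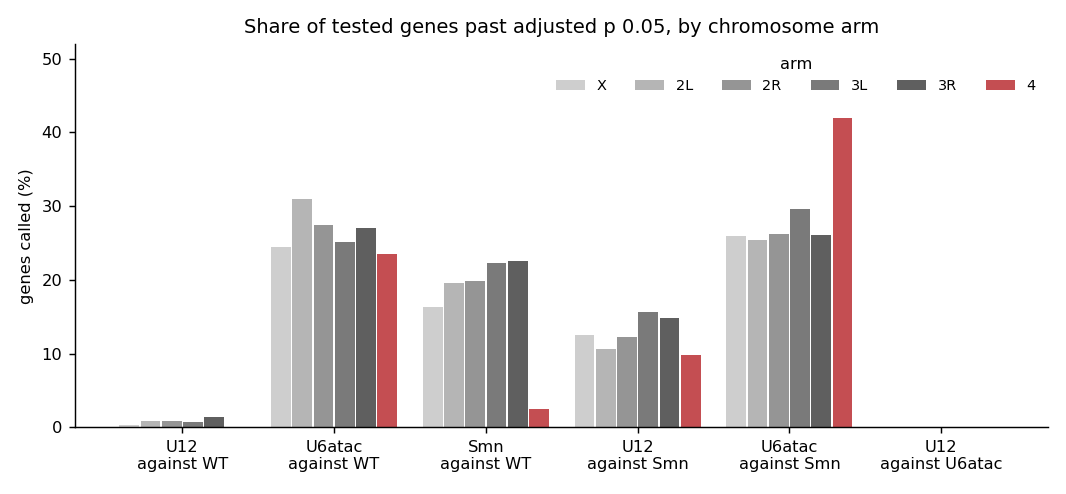
Share of tested genes with an adjusted p under 0.05 (vertical axis, percent, from 0) in the 6 comparisons, with a bar for each chromosome arm and chromosome 4 in red. The red bar is below those of all other arms in SmnΔ/Δ against WT (2.47%), above them in U6atacΔ/Δ against SmnΔ/Δ (42.0%), and at 0 in both comparisons of U12Δ/Δ with WT and with U6atacΔ/Δ.

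Within chromosome 4 the log2 fold changes of U6atacΔ/Δ and of U12Δ/Δ, against WT and against SmnΔ/Δ, were lowest in genes of low expression. In U6atacΔ/Δ against WT the median was -0.86 for the 25 members at 1 to 5 TPM, -0.69 for 27 members at 5 to 20 TPM, -0.37 for 23 members at 20 to 100 TPM and 0.03 for the 6 members above 100 TPM. The other arms followed the same order, with medians of -0.82, -0.52, -0.25 and 0.02. In U6atacΔ/Δ against SmnΔ/Δ the medians were -1.02, -0.83, -0.59 and -0.45 on chromosome 4 and -0.67, -0.57, -0.33 and -0.04 on the other arms. Members lay lower than the other arms in each range there. Over the 81 members the Spearman correlation of log2 fold change with mean TPM was 0.49 in U6atacΔ/Δ against WT, across genes of the same libraries, and 0.36 over the other arms. U12Δ/Δ against WT had the same order, with medians of -0.49, -0.43, -0.22 and -0.11. Its correlation was 0.46, and 0.3 over the other arms. For U12Δ/Δ against SmnΔ/Δ the correlation was 0.35. SmnΔ/Δ against WT did not show this order, with medians of 0.28, 0.10, 0.10 and 0.25 and a correlation of 0.0. In U12Δ/Δ against U6atacΔ/Δ the correlation was -0.3.

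Genes whose products act on chromosome 4 in trans were measured as well. *Pof* (on 2R) had 56.0 and 45.4 TPM in WT, 9.33 and 22.1 TPM in U12Δ/Δ, 11.3 and 12.8 TPM in U6atacΔ/Δ, and 21.5 and 19.3 TPM in SmnΔ/Δ, with all 6 deletion libraries below both WT libraries. Its fall passed the test in U6atacΔ/Δ (-1.98, adjusted p = 0.0197), and the adjusted p was 0.0587 in U12Δ/Δ (-1.73) and 0.0538 in SmnΔ/Δ (-1.27). The HP1a gene (FBgn0003607, on 2L) had 206.6 and 203.3 TPM in WT, 102.0 and 98.0 TPM in U12Δ/Δ, 81.3 and 96.0 TPM in U6atacΔ/Δ, and 106.4 and 137.5 TPM in SmnΔ/Δ. It fell in U6atacΔ/Δ (-1.20, adjusted p = 0.0189) and in SmnΔ/Δ (-0.76, adjusted p = 0.0499). *Su(var)3-7*, an HP1a partner (-1.05), and *wde*, a cofactor of Egg (-0.90), also fell in U6atacΔ/Δ, whereas *egg* (-0.73, adjusted p = 0.087) and the methyltransferase gene *Su(var)3-9* (-0.74, adjusted p = 0.0636) did not pass. With quantile normalization the log2 fold change of *Su(var)3-9* changed sign to 0.12. Of the 6 genes, 0 were called in U12Δ/Δ against WT, where 0.848% of all genes tested were called. Over all genes tested 23.5% were lower in U6atacΔ/Δ against WT, with a median of -0.45, and 9.22% were lower in SmnΔ/Δ. With 1 library left out, whichever it was, 0 of these calls against WT remained, neither those of *Pof*, HP1a, *Su(var)3-7* and *wde* in U6atacΔ/Δ nor that of HP1a in SmnΔ/Δ. With median-ratio scaling the value of *Pof* was -1.41 (adjusted p = 0.042) and that of HP1a was -0.61 (adjusted p = 0.13).

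**Figure D5:**
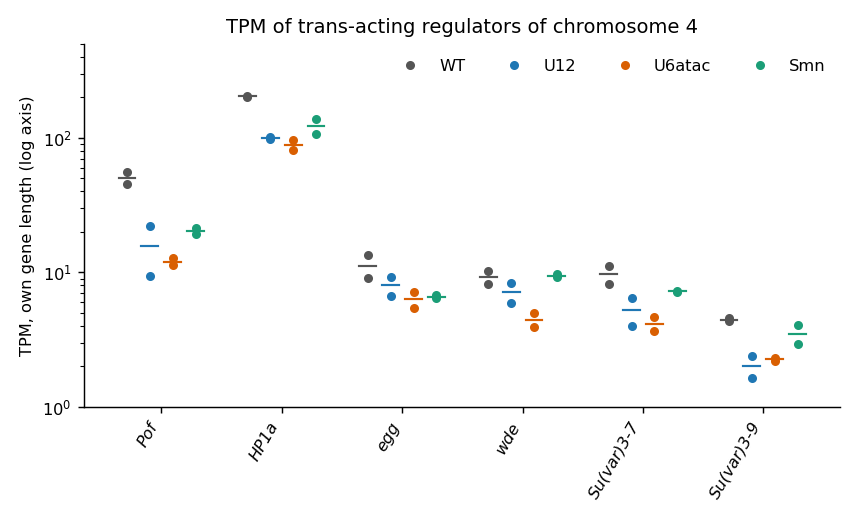
TPM (log axis, own gene length) of 6 genes whose products act on chromosome 4 in every library, with points for the 2 libraries of a strain and a line at their mean. Pof and HP1a are highest in both WT libraries (56.0 and 45.4, and 206.6 and 203.3 TPM).

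The non-coding members were few and low. Of the 30 members that are not protein coding, 10 were tested, and 3 of them were called, all in comparisons with SmnΔ/Δ. Over all genes tested 26.7% were called in U6atacΔ/Δ against SmnΔ/Δ and 13.3% in U12Δ/Δ against SmnΔ/Δ. *lncRNA:CR44024* had 1.27 and 2.86 TPM in WT, 0.416 and 0.719 TPM in U12Δ/Δ, 0.531 and 0.574 TPM in U6atacΔ/Δ, and 3.98 and 3.59 TPM in SmnΔ/Δ. It was lower in U6atacΔ/Δ (-1.62 ± 0.31, adjusted p = 0.0136) and in U12Δ/Δ (-1.62) than in SmnΔ/Δ. *asRNA:CR44029* (-1.39), which lies antisense to *unc-13* and shares 705 exon bases with it, and *asRNA:CR46065* (-1.41) were lower in U6atacΔ/Δ than in SmnΔ/Δ, the latter from as few as 1 read in a library. In all, 38 members share exon bases with another member, in 21 pairs of which 20 are on opposite strands. The library kit is not one that marks strand, so the reads of these pairs are uncertain. Of the 28 members below the minimum, 8 are protein coding and 2 had no read in any library.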

How the data were processed

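Total RNA of whole larvae was made into NEBNext libraries and sequenced as paired-end mRNA reads. The authors filtered and trimmed the reads and used TopHat with the dm6 genome, and the submitters' processing notes also name featureCounts, whose version is not given in the sources used here. The deposited values are TPM of 17473 genes in each library. Tables also list start, end and length of each gene. In the deposited TPM the divisor was a length vector of 17771 entries, 298 longer than the table, which had run on from each library to the next, so that a gene was divided by the length of a different gene in each library. The divisors were recovered from the exact ratios of the values, and reads and TPM were recomputed with each gene's listed length (3 genes list no length). On simulated data 99.963% of 111742 values were recovered. The planned test was kept. Limma 3.58.1 in R 4.3.3 (lmFit and eBayes with a trend, one fit of 4 groups) was run on log2(TPM + 1), and 11556 genes entered it because their TPM averaged 1 or more, with Benjamini-Hochberg adjustment over these genes and a threshold of 0.05. Fold changes on this scale understate changes of low genes. On simulated data of SmnΔ/Δ against WT, with 11556 genes, 41 of 50 genes changed by -2, 33 of 50 changed by 2, and 3 of 50 changed by -1 or by 1 (log2) were called. The changed genes were few and drawn from genes of higher level, whereas 20.3% of all genes were called in the data. The simulated shares therefore do not give the power of the test here. In the data *Eph* was called at -0.73 in U6atacΔ/Δ against WT, and *pan* was not called at 0.99 in SmnΔ/Δ against WT. Symbols came from a gene table and matched 17331 IDs. Named genes were drawn from the 10 members of highest level, all called members, per deletion strain the 5 largest rises and falls with separate libraries, and the members of 5 role lists (*Fis1* lies on another chromosome in the tables). The members and lists were chosen with earlier results of these data known. Marker lists were glue, fat body, muscle, neuron and the roX RNAs. The roX RNAs summed to between 36.1 and 69.0 TPM in every library, mostly from roX1, which was called in no comparison. The lower roX2 had 13.5 and 8.91 TPM in WT, 7.1 and 4.57 TPM in U12Δ/Δ, 2.9 and 3.3 TPM in U6atacΔ/Δ, and 4.23 and 3.59 TPM in SmnΔ/Δ. Its fall against WT was called in U6atacΔ/Δ (-1.55, adjusted p = 0.0197) and in SmnΔ/Δ (-1.29, adjusted p = 0.0244). The alternatives were another pseudocount, filter, scaling, sample set, prior, centring on neighbours, a replicate block and leaving out each library. TPM as deposited and limma voom on the recovered reads were added after the data were seen.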

Additional observations from a re-analysis of the deposited data

How the results depend on the processing

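All values are counts of called chromosome 4 genes, or medians of their log2 fold change, unless stated. With 1 library left out, the counts ranged from 0 to 2 in U12Δ/Δ against WT, 0 to 0 in U6atacΔ/Δ against WT, 1 to 2 in SmnΔ/Δ against WT, 0 to 9 in U12Δ/Δ against SmnΔ/Δ, 1 to 14 in U6atacΔ/Δ against SmnΔ/Δ and 0 to 0 in U12Δ/Δ against U6atacΔ/Δ. In the same order the medians ranged from -0.53 to -0.22, -0.79 to -0.41, 0.01 to 0.33, -0.63 to -0.49, -0.89 to -0.58 and 0.02 to 0.41. Blocking on the replicate number, the count in SmnΔ/Δ against WT was 4, and no other count moved by over 1.5 times (14, 9 and 33 where 19, 8 and 34 were called, and 0 in both comparisons that had 0). The numbers did not pair the libraries, as the correlation of same-numbered deviations ranged from -0.405 to 0.283.

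Without the minimum on TPM the count was 1 in U12Δ/Δ and 8 in SmnΔ/Δ against WT, and with a minimum of 5 TPM it was 9 in U6atacΔ/Δ and 1 in SmnΔ/Δ against WT, 4 in U12Δ/Δ and 22 in U6atacΔ/Δ against SmnΔ/Δ. With a pseudocount of 0.1 it was 5 in U12Δ/Δ against SmnΔ/Δ. Without a trend it was 1 in U12Δ/Δ against WT. With only the 4 libraries compared it was 12 in U6atacΔ/Δ against WT and 1 in U12Δ/Δ against SmnΔ/Δ. With limma voom it was 6 in SmnΔ/Δ against WT and 14 in U12Δ/Δ against SmnΔ/Δ. Median-ratio scaling gave 6 in U6atacΔ/Δ and 7 in SmnΔ/Δ against WT, and 5 in U12Δ/Δ and 14 in U6atacΔ/Δ against SmnΔ/Δ, and quantile normalization gave 1, 7, 2 and 3. Their medians were -0.02 and -0.04 in U12Δ/Δ against WT, -0.07 and -0.11 in U6atacΔ/Δ against WT, -0.16 and -0.17 in U12Δ/Δ against SmnΔ/Δ, and -0.21 and -0.29 in U6atacΔ/Δ against SmnΔ/Δ, and median-ratio scaling gave 0.03 in U12Δ/Δ against U6atacΔ/Δ. Centred on the 10 genes listed around it, the counts were 4 in U6atacΔ/Δ and 12 in SmnΔ/Δ against WT, and 4 in U12Δ/Δ and 10 in U6atacΔ/Δ against SmnΔ/Δ, with medians of -0.02 and -0.12 in U12Δ/Δ and U6atacΔ/Δ against WT and -0.04 and -0.13 against SmnΔ/Δ, and *PMCA* turned to 0.43 in U6atacΔ/Δ against SmnΔ/Δ.

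With TPM as deposited, whose divisor belongs to another gene, 0 members were called in any comparison, and the medians were -0.76, -0.79 and -0.09 in U12Δ/Δ, U6atacΔ/Δ and SmnΔ/Δ against WT, -0.82 in U12Δ/Δ against SmnΔ/Δ and -0.09 in U12Δ/Δ against U6atacΔ/Δ. Signs then turned for *dpr7* (0.65) and *wde* (0.19) in U6atacΔ/Δ against WT, *pan* (0.66) in U12Δ/Δ against SmnΔ/Δ, and *Taf3* (1.27), *CaMKII* (2.42), *lncRNA:CR44024* (0.04) and *asRNA:CR44029* (0.43) in U6atacΔ/Δ against SmnΔ/Δ. The mean share of TPM was 0.677% in WT, 0.560% in U6atacΔ/Δ and 0.627% in SmnΔ/Δ with the deposited values. Without the 3 members of highest mean TPM it was 0.189%, 0.155%, 0.137% and 0.208% in WT, U12Δ/Δ, U6atacΔ/Δ and SmnΔ/Δ, and with median-ratio scaling 0.393%, 0.565% and 0.469% in WT, U6atacΔ/Δ and SmnΔ/Δ. Apart from the settings that leave out a library, scale or centre, the cause of these moves was not tested. All other settings kept each median within 0.17 of its value. With 2 libraries per strain, the adjusted p of the members called in U6atacΔ/Δ against WT lay between 0.0185 and 0.0492.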
